A study of Mus musculus with 6 samples.

Results

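The 6 type IV collagen genes of the mouse, Col4a1 to Col4a6, were described through the open chromatin mapped over them in kidney. Members were the distinct intervals of the pooled ATAC-seq peak list that overlapped a gene from 3 kb upstream of its start to its end, read on its own strand. This gave 197 of the 279569 intervals of the list, holding 876 summits. Of these 197 intervals, 4 lay in the regions of both genes of a pair. Each interval took the values of the summit with its highest -log10 q, where q is the adjusted p-value of the peak caller. The main value was the fold enrichment, a linear ratio of the pooled reads at the summit to the background that the caller used. Equal fold enrichments had equal -log10 q at all 3 loci, for example 3.27 with 11.3 on chromosomes 1, 8 and X. No correction for a background local to each place is therefore visible in these values.

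ATAC-seq measures accessibility by how often a transposase cuts the DNA of isolated nuclei. The labels give 3 WT and 3 Acly cKO kidney libraries, every one marked as Control treatment. Per the methods, the tissue was kidney cortex, the Acly cKO mice were Acly fl/fl carrying Ksp-Cre, and the controls were Acly fl/fl littermates without Cre. Ksp-Cre is driven by Cdh16 and recombines broadly in tubular epithelium, so glomerular, vascular and interstitial cells of these mice keep their intact floxed alleles. The WT libraries carry the batch labels 1 and 2 and the Acly cKO libraries 4 and 5. Genotype and batch therefore cannot be told apart, and ages and sexes are not given by the labels. The deposited peak list is 1 call over pooled libraries with no column for a library. No comparison of genotypes, no error between replicates and no test could be had for any value below, and the depth behind each value is unknown.

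Type IV collagen is the network-forming collagen of basement membranes. Its 6 chains assemble into trimers of fixed composition. The chain pair encoded by Col4a1 and Col4a2 is found in basement membranes throughout the body, the trimer of the Col4a3, Col4a4 and Col4a5 chains forms the mature glomerular basement membrane and parts of the tubular one, and the Col4a5 and Col4a6 chains together serve Bowman's capsule and smooth muscle. In the glomerulus the Col4a3, Col4a4 and Col4a5 chains come from podocytes, and their loss causes Alport syndrome. The genes lie in pairs, head to head, each pair sharing a stretch of DNA from which its members are transcribed in opposite directions.

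The sequences at the centre of each shared promoter are shown first, because they differ in composition. Each is the 30 bases around the highest summit of the promoter interval on the plus strand of GRCm39, with CpG dinucleotides in capitals. The windows are chr8:11362789-11362818, chr1:82564600-82564629 and chrX:140258339-140258368.
Col4a1/Col4a2: gccccctcccctCGgcagtgCGCGggCGgc
Col4a3/Col4a4: ctccccccaccctgtgcagccacctcccta
Col4a5/Col4a6: agcactggCGgagtgataCGcaaattcccc
These short windows held 4, 0 and 2 CpG dinucleotides. Over 300 bp around the same summits the GC content was 73.7% at Col4a1/Col4a2, 64.7% at Col4a3/Col4a4 and 53.7% at Col4a5/Col4a6. The ratio of observed to expected CpG over these 300 bp was 0.934, 0.538 and 0.603 in that order. Head-to-head coding pairs of the genome had medians of 62.3% GC and 0.843 in CpG ratio over 300 bp at their midpoints. The summit windows are centred elsewhere, so the nearer comparison is the stretch between the starts, of 318, 104 and 1283 bp. There GC content was 72%, 60.6% and 39.2% in the same order, and the CpG ratio 0.826, 0.444 and 0.284. All 3 of these CpG ratios were under the median of the pairs, and only Col4a1/Col4a2 was above it in GC content.

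All 3 shared promoters lay in open chromatin, and each was covered by 1 continuous interval that spanned both starts. The Col4a1/Col4a2 interval, chr8:11361179-11369220 on GRCm39, was 8042 bp wide with 22 summits, and its highest summit reached 31.6 in fold enrichment with a -log10 q of 532. The Col4a3/Col4a4 interval, chr1:82561393-82569159, was 7767 bp wide with 20 summits, and its highest summit reached 33.7 with a -log10 q of 582. The Col4a5/Col4a6 interval, chrX:140256014-140259977, was 3964 bp wide with 9 summits and reached 24.2 with a -log10 q of 367. These fold enrichments were above 96.9%, 97.2% and 95.5% of all intervals in the list, whose median was 2.55. The X-linked promoter had the lowest value of the 3, but a locus on the X chromosome is present once per cell in males, and the sexes pooled here are unknown, so copy number and accessibility cannot be told apart between it and the autosomal pairs.

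The pairs differed in how their starts were arranged. Starts were those of the canonical transcripts of GENCODE M39. The starts of Col4a1 (minus strand) and Col4a2 (plus strand) lay 317 bp apart with the first exons overlapping, and those of Col4a4 (minus) and Col4a3 (plus) lay 103 bp apart, also overlapping. The starts of Col4a6 (minus) and Col4a5 (plus) were 1282 bp apart with the sequence between them in neither gene. The highest Col4a1/Col4a2 summit lay in the 5′ UTR exon of both genes, 22 bp downstream of the Col4a1 start and 295 bp downstream of the Col4a2 start. The highest Col4a3/Col4a4 summit was 82 bp upstream of the Col4a3 start and 185 bp downstream of the Col4a4 start. At Col4a5/Col4a6 the highest summit fell on the Col4a5 start itself, at a distance of 0 bp.

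**Figure D1:**
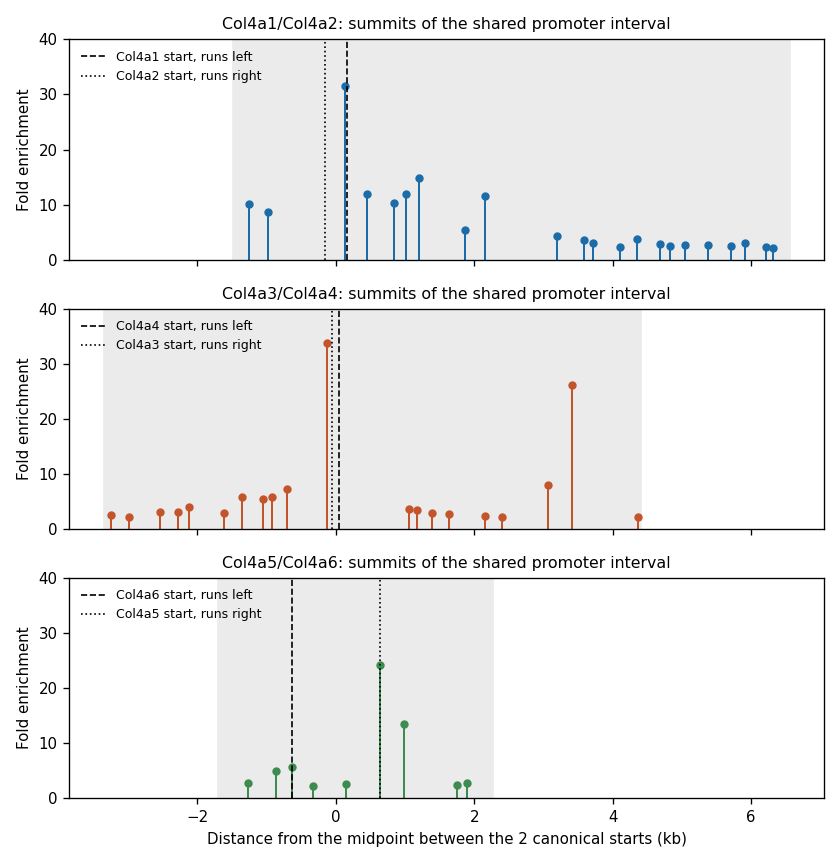
Fold enrichment of every summit in the 3 shared promoter intervals (vertical axis, ratio to background) against distance from the midpoint between both canonical starts (horizontal axis, kb). Grey marks the interval and black lines the starts. Col4a1/Col4a2 and Col4a3/Col4a4 have 1 summit over 30 beside both starts, while at Col4a5/Col4a6 the summit of 24.2 is at the Col4a5 start and the one at the Col4a6 start is at 5.7.

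Col4a6 was the only member without a summit of at least 20 within 300 bp of its start. That limit was added after the data were seen. Col4a2 met it at 295 bp, through the summit that lies 22 bp from the Col4a1 start. The canonical start was inside an interval for 6 of 6 members, against 71.2% of the 21757 protein-coding genes, and inside an interval of fold enrichment at least 20 for 6 of 6, against 48.9%. Both genes of a pair read the same interval here, so these 6 starts are 3 distinct intervals. Counting only summits within 300 bp of the start, 5 of 6 members reached 20, against 43.1% of protein-coding genes. Col4a6 had 5.7 there, from a summit 10 bp upstream of its start with a -log10 q of 36.1, which was above 42% of protein-coding starts on the same measure. The values within 300 bp were 31.6 for Col4a1 and Col4a2, 33.7 for Col4a3 and Col4a4 and 24.2 for Col4a5, above 69.1%, 71.3% and 61.2% of protein-coding starts. Because each autosomal pair shares its summit, these are 4 distinct values and not 6.

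Each promoter interval also held summits away from the starts. At Col4a3/Col4a4 a second summit of 26.1 stood 3467 bp downstream of the Col4a3 start, in intron 1, with one of 8.05 at 3120 bp downstream. The next highest at Col4a1/Col4a2 was 14.9, at 1044 bp upstream of the Col4a1 start and so 1361 bp into Col4a2. At Col4a5/Col4a6 a summit of 13.5 lay 346 bp downstream of the Col4a5 start. The interval at Col4a3/Col4a4 thus had 2 summits over 20, whereas the others had 1 each.

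Set beside other genes transcribed head to head, the collagen promoters were in the lower part of the range. The genome has 911 protein-coding pairs whose canonical starts are at most 1000 bp apart and whose bodies run away from each other, and the interval over their midpoint had a median fold enrichment of 46.2, with quartiles of 31.5 and 62.1. All 3 of 3 collagen promoters reached 20, as did 90.2% of these pairs. Col4a1/Col4a2 was above 25.1% of the pairs (Wilson 95% interval 22.4 to 28.1, counting error only), Col4a3/Col4a4 above 28.5% (25.7 to 31.6) and Col4a5/Col4a6 above 13.4% (11.3 to 15.8). These pairs are all of their kind in the annotation, so the Wilson intervals measure no error of the collagen values. With its wider gap, Col4a5/Col4a6 is not itself among the 911. In this order Col4a1/Col4a2 stood between Zfp668/Zfp646 and Srsf2/Mfsd11 at 31.5 each and Fig4/Ak9 and Spcs1/Glt8d1 at 31.8 each. Col4a3/Col4a4 stood next to Erh/Slc39a9 and Trappc12/Eipr1 at 33.5 and to Inca1/Kif1c and Alkbh1/Slirp at 33.7. Col4a5/Col4a6 lay between Gpc2/Stag3 and Fam114a2/Mfap3 at 23.8 and Fen1/Tmem258 and Fhl4/Tmem263 at 24.3. With 1 pooled call, no error exists against which the order of such close neighbours could be read.

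**Figure D2:**
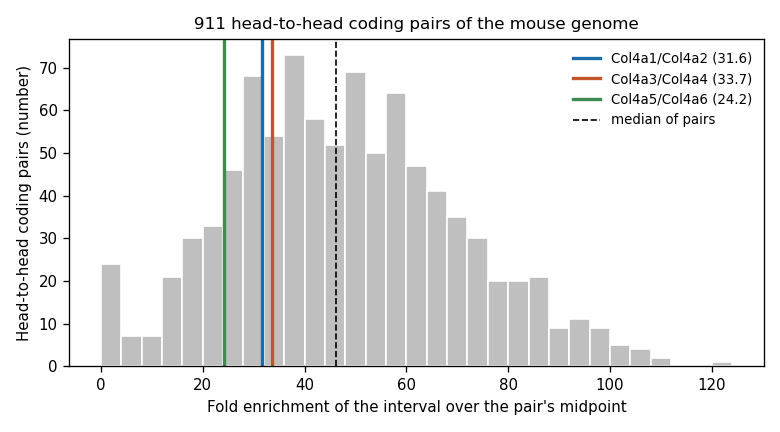
Distribution of the fold enrichment (horizontal axis) over the number of head-to-head coding pairs (vertical axis), with the 3 type IV collagen promoters as coloured lines and the median of the pairs dashed. The collagen promoters, at 24.2, 31.6 and 33.7, are all left of the median of 46.2.

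Exact matches of 10 short motifs were searched on both strands between the starts of each pair. The letters searched were CCAAT for the promoter box of that name, GGGCGG for the Sp1 site, TATAAA for the core promoter element bound by TBP, CCCTCCCC for a CT-rich element, TAATTA for a homeodomain core, TGANTCA for the AP-1 site, GTTAAT for part of the HNF1 site, TTGGCA for part of the NF1 site, CACGTG for the E-box and AGATAAG for the GATA factor site. CCAAT can share letters with TTGGCA read on the other strand. In the 318 bases between the Col4a1 and Col4a2 starts, GGGCGG matched 4 times, CCAAT 1 time and CCCTCCCC 1 time, and the other 7 motifs did not match. Windows of that length at the midpoints of head-to-head pairs held GGGCGG in 65.2%, CCAAT in 41.6% and CCCTCCCC in 10.3%. The 104 bases between the Col4a3 and Col4a4 starts matched 0 of the 10, where GGGCGG was found in 36.7% and CCAAT in 22.5% of head-to-head windows as short. In the 1283 bases between the Col4a6 and Col4a5 starts, TATAAA matched 3 times, CCAAT and GTTAAT 2 times each, and GGGCGG and TTGGCA 1 time each. Head-to-head windows of 1283 bases held TATAAA in 22.6%, CCAAT in 76.4%, GTTAAT in 17%, GGGCGG in 92% and TTGGCA in 37.1%. A match describes letters only, and the absence of a match says nothing about binding.

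The only pair with sequence outside both genes between its starts was Col4a5/Col4a6, and the 200 bases just before the Col4a5 start, chrX:140258154-140258353 on the plus strand of GRCm39, are shown with motif matches in capitals.
Col4a5 upstream: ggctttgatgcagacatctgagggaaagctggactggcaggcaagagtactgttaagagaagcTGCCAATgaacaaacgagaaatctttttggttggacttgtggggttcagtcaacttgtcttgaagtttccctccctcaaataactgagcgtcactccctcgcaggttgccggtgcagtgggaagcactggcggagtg
Here the capitals cover a TTGGCA match on the other strand from base 64 and a CCAAT match from base 66, which share letters.

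The strongest interval of a gene was not always the promoter. In 3 of the 6 members, Col4a1, Col4a2 and Col4a3, the interval with the highest -log10 q did not cover the start, against 40.3% of the 2194 protein-coding genes with a region of 100 to 350 kb. Of the 197 intervals, 24 had a fold enrichment of at least 10 (12.2%, against 12.3% of all intervals) and 14 of at least 20 (7.11%, against 5.59% of all intervals). Both shares were near those of the whole list. The shared promoters were 3 of those 14. By pair, the intervals of at least 20 numbered 8 at Col4a1/Col4a2, 5 at Col4a3/Col4a4 and 1 at Col4a5/Col4a6. The median fold enrichment over all intervals of a pair was 2.68, 2.39 and 3.5, near the 2.55 of the whole list, so most intervals at these genes were weak.

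Col4a1, one of the ubiquitous chains, had its strongest interval inside intron 1. This interval, chr8:11327206-11333116, reached 44 at a summit 33.2 kb downstream of the canonical start. The summit was 64 bp from the start of a second protein-coding Col4a1 transcript, ENSMUST00000208095.2, and lay within the body of the lncRNA gene Gm32709 on the other strand. Further in, intervals of 23.6 in intron 21, 22.7 in intron 29 and 21.6 in intron 2 were found 77.8, 91.3 and 52.4 kb from the start. The last of these covered the start of Gm32709, which was 940 bp from its summit. The 200 bases upstream of the inner Col4a1 start, chr8:11329657-11329856 on the minus strand of GRCm39, carried 8 CpG and 1 CCCTCCCC match on the other strand, in capitals.
Col4a1 inner start: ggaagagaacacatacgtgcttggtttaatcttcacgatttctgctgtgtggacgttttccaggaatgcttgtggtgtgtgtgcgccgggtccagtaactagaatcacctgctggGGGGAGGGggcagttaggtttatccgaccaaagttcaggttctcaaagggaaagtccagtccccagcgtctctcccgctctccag

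Col4a2, whose product joins that of Col4a1 in the same trimer, had a comparable number of strong intervals, spread over introns 3 and 4. The strongest, chr8:11387485-11393525 in intron 3, reached 34.5 at 28 kb from the start. In intron 4, an interval of 20.9 lay 83.8 kb and one of 17.2 lay 57.2 kb from the start. Intervals of 13.7 in intron 3 and of 12.3 and 10.5 in intron 4 had their summits 31, 42 and 62 bp from annotated starts of the lncRNA genes Gm64107 and Gm64031. A broad interval of 19184 bp with 48 summits ran over the end of Col4a2, but its highest summit, at 29.5, was beyond the gene end and within the body of Rab20. The 200 bases around the intron 3 summit, chr8:11390428-11390627 on the plus strand, held 1 match to the AP-1 site TGANTCA from base 56, in capitals.
Col4a2 intron 3: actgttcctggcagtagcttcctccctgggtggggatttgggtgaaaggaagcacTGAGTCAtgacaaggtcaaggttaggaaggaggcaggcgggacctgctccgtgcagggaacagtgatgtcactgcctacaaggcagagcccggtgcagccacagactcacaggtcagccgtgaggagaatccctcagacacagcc

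Col4a3, a chain of the glomerular network, carried the highest value of any interval at the 6 genes. The interval chr1:82605640-82615490 in intron 1 reached 52.3 with a -log10 q of 1054, 47.7 kb downstream of the start, and was 9851 bp wide with 29 summits. GENCODE annotates an rRNA gene, Gm54925, whose start is 338 bp from this summit. Whether repeated sequence contributes to this value was not tested, and per the methods reads that did not map uniquely were removed. Others of 23.4, 22.8 and 16.1 followed in the same intron, at 31.8, 19.1 and 10.4 kb. Intron 1 held 17 of the 26 Col4a3 intervals (65.4%) and 4 of its 5 intervals of at least 10, and it makes up 40% of the gene. The 200 bases around the highest summit, chr1:82612296-82612495 on the plus strand, had a GC content of 62.5%, 8 CpG and 1 TTGGCA match on the other strand from base 56.
Col4a3 intron 1: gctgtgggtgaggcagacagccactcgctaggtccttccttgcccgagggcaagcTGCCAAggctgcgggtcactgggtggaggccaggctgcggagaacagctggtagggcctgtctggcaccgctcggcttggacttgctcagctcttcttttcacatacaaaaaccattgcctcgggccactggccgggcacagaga

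Col4a4, the partner of Col4a3, had more intervals than Col4a3 but fewer strong ones. Its strongest beside the promoter was in intron 1, at 26.9 and 9.06 kb from the start. The next were 8.51 in intron 5 and 7.2 in intron 4, the latter covering the start of the lncRNA gene Gm70775. Of its 39 intervals, 2 reached 10, and 1 of those was the promoter. The 200 bases around the intron 1 summit, chr1:82555642-82555841 on the minus strand, matched none of the 10 motifs and have no capitals.
Col4a4 intron 1: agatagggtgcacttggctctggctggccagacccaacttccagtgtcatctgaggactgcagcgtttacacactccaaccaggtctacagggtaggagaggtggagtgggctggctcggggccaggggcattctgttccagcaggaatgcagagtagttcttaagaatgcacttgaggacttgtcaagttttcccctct

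The X-linked genes had few intervals. Col4a5 had 8, and beside the promoter none reached 10, with 6.48 in intron 1 at 58.3 kb, 3.73 in intron 39 and 3.27 in intron 37 as its highest. Col4a6 had 7, including 15.2 in intron 2 at 111 kb from the start, chrX:140146197-140146888, a narrow interval of 692 bp with 1 summit. Beside the promoter, the other Col4a6 intervals ranged from 2.68 to 5.3. The 200 bases around the intron 2 summit, chrX:140146433-140146632 on the minus strand, held 0 CpG and matches to CCAAT from base 62, to TGANTCA from base 82 and to TTGGCA from base 114.
Col4a6 intron 2: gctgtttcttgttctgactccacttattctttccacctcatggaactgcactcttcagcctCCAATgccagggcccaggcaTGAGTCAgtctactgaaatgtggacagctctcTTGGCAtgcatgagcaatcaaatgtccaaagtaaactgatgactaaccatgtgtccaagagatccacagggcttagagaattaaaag

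The 3 strongest intervals of each gene outside the promoters, 18 in all, ranged from 3.27 at Col4a5 to 52.3 at Col4a3. They are therefore not the 18 strongest over the 6 genes. Of them, 8 had a TTGGCA match within 300 bp centred on the summit, where 18.6% of all intervals did. TGANTCA matched in 6 of the 18 against 15.2% of all intervals, GTTAAT in 4 against 10.3% and CCAAT in 4 against 32.3%. GGGCGG matched in 1 of the 18, against 10.1% of all intervals. GC content of these windows ran from 34.3% to 58.7% with a median of 49%, and the median of all intervals was 49.3%. The observed to expected CpG ratio had a median of 0.185 in the 18 and 0.195 in all intervals, under the values at the 3 promoters.

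**Figure D3:**
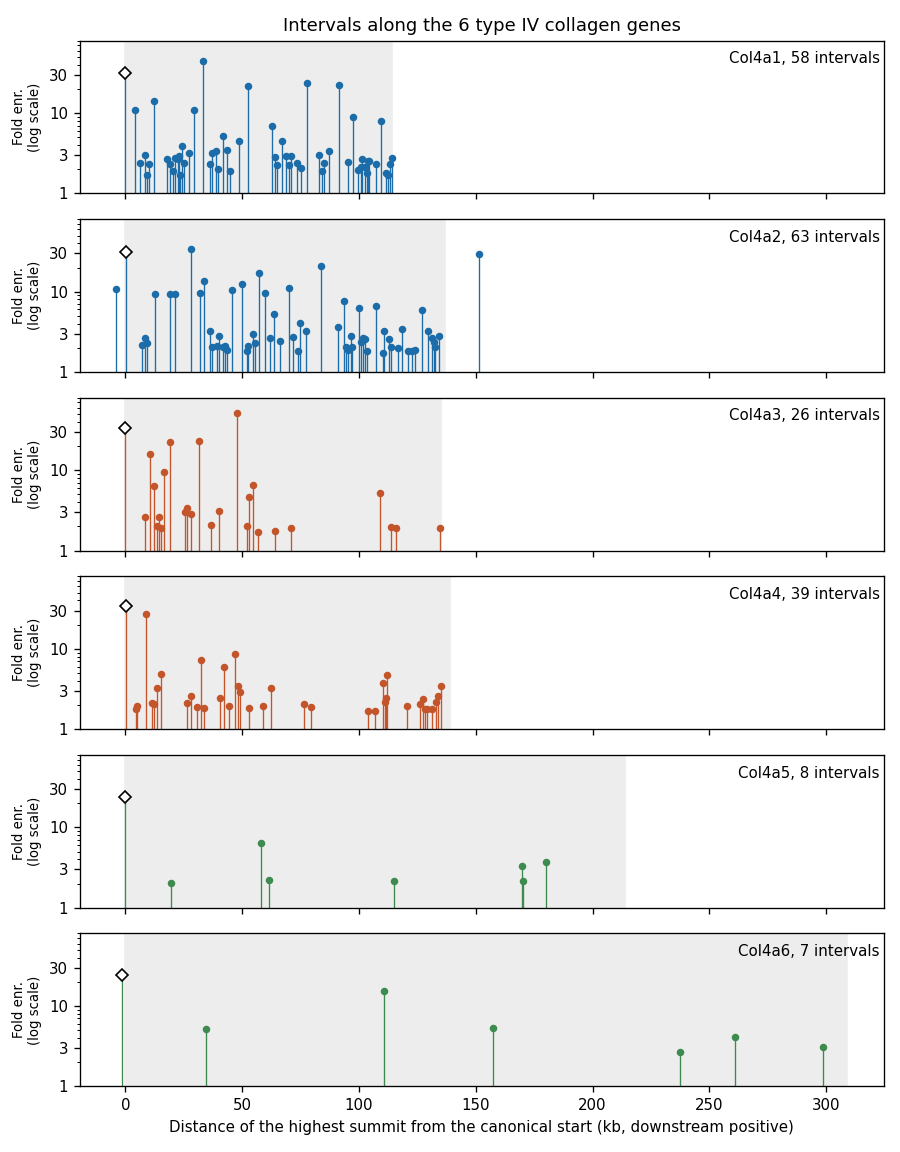
Fold enrichment (vertical axis, log scale) of each interval against the distance of its highest summit from the canonical start (horizontal axis, kb), 1 panel for each of the 6 genes. Grey marks the gene body and open diamonds the shared promoters. Strong intervals run along Col4a1 and Col4a2, gather in the first 50 kb of Col4a3 and are nearly absent from Col4a5 and Col4a6.

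Density of intervals followed the pairs. Col4a1 had 58 intervals in its 117 kb region and Col4a2 63 in 140 kb, which is 49.4 and 45.1 per 100 kb. Col4a4 had 39 in 142 kb (27.5 per 100 kb) and Col4a3 26 in 138 kb (18.8 per 100 kb). Col4a5 had 8 in 217 kb (3.69 per 100 kb) and Col4a6 7 in 312 kb (2.25 per 100 kb). Among the 2194 protein-coding genes of 100 to 350 kb, with a median of 14.3 per 100 kb, Col4a1 was above 98.4% and Col4a2 above 95.7%, Col4a4 above 76.1% and Col4a3 above 60.7%, and Col4a5 above 13.4% and Col4a6 above 6.43%. Intervals covered 76.5% of the Col4a1 region and 76% of the Col4a2 region, 31.1% of Col4a3 and 21.8% of Col4a4, but 3.35% of Col4a5 and 2.49% of Col4a6, and the median for genes of this length was 9.67%. With a -log10 q of at least 5, counts fell to 36, 39, 16 and 17 for Col4a1 to Col4a4 and to 4 for Col4a5, while all 7 at Col4a6 stayed, so that Col4a6 (2.25 per 100 kb) then stood above Col4a5 (1.84).

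Low density was shared by the X chromosome as a whole. Its 106 protein-coding genes of 100 to 350 kb had a median of 3.76 intervals per 100 kb. Col4a5 was above 49.1% of these and Col4a6 above 28.3%, so that neither stood at an extreme of the long X-linked genes. The promoter value of 24.2 was above 75.2% of the 982 X-linked protein-coding starts, whose median was 0, that is, no interval.

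**Figure D4:**
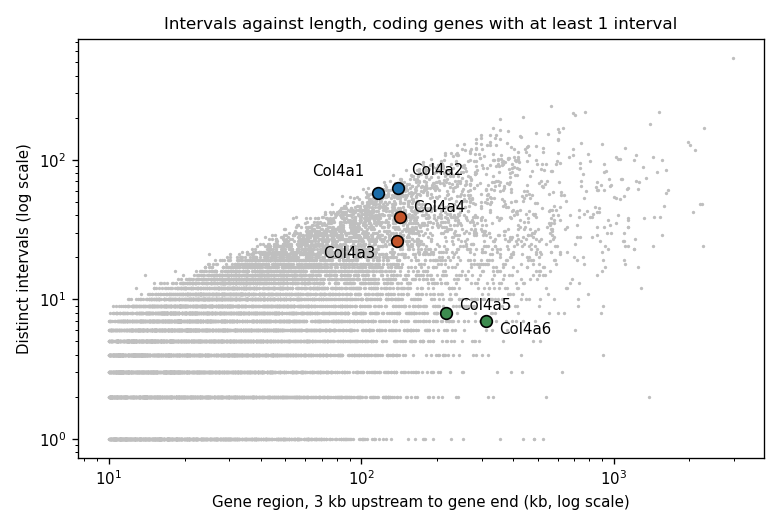
Number of distinct intervals (vertical axis, log scale) against the length of the gene region (horizontal axis, kb, log scale) for protein-coding genes of at least 10 kb with 1 interval or more in grey, with the 6 members coloured by pair. Col4a1 (58) and Col4a2 (63) are near the upper edge for their length, Col4a3 (26) and Col4a4 (39) in the middle, and Col4a5 (8) and Col4a6 (7) towards the lower side.

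Where in the gene intervals fell also differed. Intron 1 of Col4a1, 44.9 kb and 39.2% of the gene, held 25 of 58 intervals (43.1%) and 4 of the 8 of at least 10. Intron 1 of Col4a4 is shorter, at 15.1 kb, and held 7 of 39. In Col4a5 intron 1 held 3 of 8, and in Col4a2 and Col4a6, whose first introns are under 1 kb, it held 0. In Col4a2 the long introns 3 (40.6 kb) and 4 (44.3 kb) held 14 and 19 of the 63.

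The fibrillar collagens, which build interstitial fibres and not basement membranes, had weaker starts. All 11 of them had the start in an interval, but 0 of 11 in one of at least 20, with a median of 7.01. The highest were Col27a1 at 16.5 and Col5a1 at 12.6 and the lowest Col3a1 at 2.95 and Col2a1 at 3.47. All 6 type IV starts, at 24.2 to 33.7, were above the highest of these 11, but they are 3 distinct intervals, 1 for each pair. Head-to-head coding pairs reached 20 in 90.2%. Read within 300 bp of the start, Col4a6 at 5.7 was among the fibrillar values, which had a median of 5.89 on that measure. These are values of 1 pooled call, and no test of the difference could be made.

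Genes that build or bind the type IV network varied more widely. Of the 53 in the basement membrane list, 52 had the start in an interval and 29 in one of at least 20 (54.7%, against 48.9% of all protein-coding starts), with a median of 28.9. All protein-coding starts had a median of 18.9. Laminins, the other network of the basement membrane, had 6 of 11 at 20 or more (median 20.1), from Lama2 at 3.73 and Lamc3 at 7.99 to Lamc1 at 46.6 and Lama1 at 50.8. Nidogens and proteoglycans, which link both networks, had 3 of 6 (median 21.4), from Col15a1 at 1.83 and Nid1 at 7.59 to Nid2 at 44.1 and Agrn at 46.9. Genes for collagen folding, modification, export and crosslinking had 12 of 16 (median 32.8), with Sec23a, a coat protein of secretory vesicles, at 92.8 and Colgalt1, a collagen galactosyltransferase, at 73.1. In that group Lox was at 8.45 and Loxl2, which crosslinks type IV collagen, had no interval at its start. Pxdn, which forms the sulfilimine bonds of the type IV network, was at 19.8.

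Receptors and binding proteins had 6 of 10 at 20 or more (median 40.4), led by Itga1, the alpha chain of a collagen-binding integrin, at 64.3 and Itgb1 at 57. Ddr2 and Sparc were lowest there, at 2.36 and 12.1. Proteases and their inhibitors had 1 of 6 (median 13), Timp3 at 35, followed by Mmp14 at 15.8, with Mmp2 at 2.88 and Mmp9 at 3.01. Of the transcription factors of podocytes, Wt1 was at 9.76, Lmx1b, which acts on Col4a3 and Col4a4, at 7.46 and Tcf21 at 5.17.

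**Figure D5:**
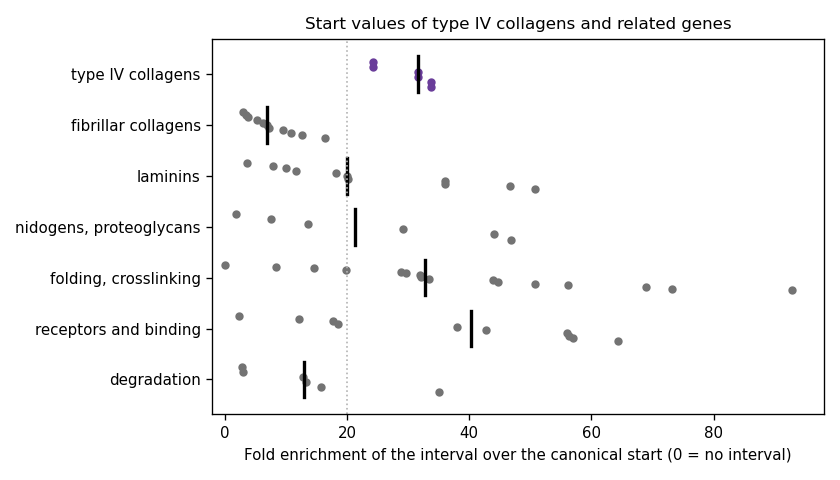
Fold enrichment of the interval over the canonical start (horizontal axis, 0 where there is none) for each gene, by list (vertical axis), with black bars at the medians and a dotted line at 20. The 6 type IV collagens, which share 1 interval per pair, lie between 24.2 and 33.7, the 11 fibrillar collagens all under 20, and the other lists span both sides.

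The labelled tissue was checked with 40 marker genes. Starts of the 5 markers of the proximal tubule had a median fold enrichment of 15.1, those of the collecting duct 17, of the thick ascending limb and distal tubule 8.51 and of podocytes 9.76. Medians were 3.01 for endothelium, 4.06 for stroma and mesangium, 1.9 for immune cells and 0 for genes of other organs. All 5 podocyte markers had an interval at the start, from 3.14 at Nphs1 to 29.5 at Synpo, while Pecam1 of endothelium, Ren1 of stroma and mesangium and Cd3e of immune cells had none. Col4a1 and Col4a2 are made by endothelial, mesangial and epithelial cells. In the glomerulus Col4a3, Col4a4 and Col4a5 are made by podocytes, and their trimer is also part of the tubular basement membrane. The list mixes all cells of the cortex. Fewer cells of a type and less open chromatin per cell cannot be told apart, and the part of each cell type in the values above was not tested.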

How the data were processed

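Kidney ATAC-seq libraries of 3 WT and 3 Acly cKO mice were grouped from their labels. Per the methods, the authors used fastp for trimming and Bowtie2 2.3.4.3 for alignment to mm39 (GRCm39), discarded duplicates and reads without a unique position, called peaks with MACS3 3.0.0 (extension 200, shift 100 as printed, q of 0.05, summits called) and dropped blacklisted regions with bedtools 2.29.1. Versions are those in the submitters' processing notes. The pool was called once, and which libraries entered it is not given in the sources used here. The design text counts more WT libraries than are labelled here, some of them from an earlier deposit. The deposited list gives for each summit the fold enrichment, a ratio made by the authors' caller, the -log10 p (not used here) and -log10 q, and a score derived from q. The summit list deposited without filtering also gives -log10 q.

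Rows with the same chromosome, start and end were taken as 1 interval. Coordinates are on GRCm39, counted from 1, and genes and canonical starts are those of GENCODE M39. Promoter intervals were those over the midpoint of both canonical starts. The shares of head-to-head pairs have Wilson intervals at 95%, which cover counting error only and no error of the collagen values. Motifs were searched as exact matches in GRCm39, from which all sequences shown were read. The intervals named are the 3 highest of each gene outside the promoter, others of at least 10 being named after their values were seen. Of each gene list the 2 highest and 2 lowest starts and those without an interval are named, and Pxdn was added after its value was seen. Of the podocyte regulators 1 is not reported here. Marker genes are given by the median of each list and the number with an interval at the start, with a few named after their values were seen. Of the head-to-head pairs, the 2 on either side of each collagen promoter are named. The members, the lists and the comparisons were chosen with earlier results of these data known. The labelled groups could not be compared, since no column belongs to a library.

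Alternatives were other summits, starts, thresholds on q and fold enrichment, regions, overlaps, pair distances and motif windows. Scripts were tested on simulated data, where 3000 of 3000 intervals, 500 of 500 region counts, 228 of 228 pairs, 2000 of 2000 planted motifs and 13 of 13 annotation cases were recovered. Python 3.11.15, numpy 2.4.6, scipy 1.17.1, pysam 0.24.0 and matplotlib 3.10.9 were used.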

Additional observations from a re-analysis of the deposited data

How the results depend on the processing

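No paired analysis was possible because the peak list is a single call over pooled libraries, and for the same reason no replicate could be left out. The promoter values of Col4a1/Col4a2 and Col4a3/Col4a4 kept their value with the summit nearest the midpoint and with the outermost gene starts. Reading the highest fold enrichment had to give the same summit at all 3 promoters, because -log10 q rose with fold enrichment at these genes. Col4a5/Col4a6 fell from 24.2 to 2.55 when the summit nearest the midpoint was read, since that summit lies between both starts. With starts within 500 or 2000 bp, the share of head-to-head pairs below Col4a1/Col4a2 was 24.5% or 27.1%. For Col4a3/Col4a4 it was 27.9% or 30.5%, and for Col4a5/Col4a6 12.2% or 15.7%. Ranked by -log10 q the shares stayed at 25.1%, 28.5% and 13.4%, which for the same reason is no separate check.

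The number of intervals at the 6 genes depended on the threshold, at 115 with a -log10 q of at least 5, 48 with a fold enrichment of at least 5 and 876 with summits counted, against 197. By gene, a -log10 q of at least 5 left 36 at Col4a1, 39 at Col4a2, 16 at Col4a3, 17 at Col4a4 and 4 at Col4a5, or 30.7, 27.9, 11.6, 12 and 1.84 per 100 kb. A fold enrichment of at least 5 left 12, 20, 9, 5, 2 and 4 from Col4a1 to Col4a6. Other regions and overlaps kept the total within 1.5 times.

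Over all protein-coding genes, the share of starts in an interval was 71.2% with the canonical start, 68.4% with the outermost start and 75.8% with any interval within 1 kb. At a fold enrichment of at least 5 these shares were 64.5%, 61.7% and 66.2%, at 10 they were 58.6%, 55.9% and 59.4%, and at 20 the outermost start gave 46.6% in place of 48.9%. In the whole promoter interval 8 of the 10 motifs matched at Col4a1/Col4a2 and 9 at Col4a3/Col4a4, in windows of 8042 and 7767 bp. The 300 bp summit windows, the summit within 300 bp of a start, the highest summit inside the region and the comparisons with long and X-linked genes were added after the data were seen. Depth per library is unknown, so no limit of detection can be given.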

Other observations

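Around the 3 loci, the protein-coding neighbours had starts of their own in open chromatin in some cases. Mff, whose start lies 2802 bp beyond the end of Col4a3, had a fold enrichment of 52.5 there. Rhbdd1, with its start 131971 bp beyond the end of Col4a4, had 58.9. Rab20, with its start 29423 bp beyond the end of Col4a2, had 40.5. Further out, Naxd at 49 and Cars2 at 38.9 lay beyond Col4a2. Tm4sf20 at 2.49 and Gm47791 with no interval at its start lay beyond Col4a3. On the X chromosome, Irs4, with its start 36028 bp beyond Col4a5, had 7.01. Atg4a, with its start 93817 bp beyond Col4a6, had no interval there.

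Extending the regions by 10 kb on either side added 9 intervals at Col4a1, 5 at Col4a2, 6 each at Col4a3 and Col4a4, 0 at Col4a5 and 2 at Col4a6. The upstream flank of a gene runs into its partner, so some of these were already counted there. The total of distinct intervals rose from 197 to 211. The list of summits before filtering held 834 summits in the regions of the 6 genes, and 0 of these were absent from the filtered list, so the removal of blacklisted regions took nothing from them. The 876 summits given above are counted otherwise, as all summits of the overlapping intervals, also those beyond the regions. Over the whole list 874 of 750624 summits were absent after filtering.

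At Col4a1, the interval of 44 at the inner start of intron 1 exceeded the 31.6 of the shared promoter, and at Col4a3 the interval of 52.3 in intron 1 exceeded its 33.7. Outside the shared promoter, Col4a1 and Col4a2 had 15 intervals that reached 10, and 4 of these had the highest summit within 100 bp of an annotated start inside either gene, at 64, 31, 42 and 62 bp, and 3 of these starts belong to lncRNA genes. Of the 6 such intervals at the other 4 genes, 0 had one that near. Of all 12281 intervals of at least 10 in the list that cover no canonical coding start and have the highest summit inside a protein-coding gene, 8.61% had an annotated start within 100 bp. This is a description of the annotation at these places, chosen after the values were seen, and no transcription was measured.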
